A study of Rattus norvegicus with 6 samples.

Results

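The miR-99 and miR-100 family was described in small RNA libraries from rat tissue labelled testicle. Its members were the rows of the deposited table whose names begin with miR-99a, miR-99b or miR-100, so the rule used names and no values. They were rno-miR-99a-5p, rno-miR-99a-3p, rno-miR-99b-5p, rno-miR-99b-3p, rno-miR-100-5p and rno-miR-100-3p, where rno stands for the rat and is left out below. That gave 6 members of 764 miRNA entries, and all 6 were among the 570 entries with a value above 0 in some library. Sprague Dawley males gave all 6 libraries, 3 with the genotype HO-1 knockout and 3 WT. HO-1 is heme oxygenase 1, the inducible enzyme that degrades heme. In every animal the left testicle had been twisted by 720° for 2 h and released for 3 days, and no sham or uninjured tissue was analysed here. The labels do not name the knockout allele, give no ages, and do not say that each library is a separate animal, so p-values measure the spread between these libraries. Levels are reads per 1000000 reads assigned to miRNAs (RPM), from libraries of 8300536 to 10042673 reads.

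The family is among the oldest conserved miRNA families of animals. In mammals each of its precursors sits beside a let-7 and a miR-125 precursor, in the order miR-99a, let-7c-1 and miR-125b-2, the order miR-100, let-7a-2 and miR-125b-1, and the order miR-99b, let-7e and miR-125a. The RefSeq gene table of the rat assembly GRCr8 places these trios on chromosomes 11, 8 and 1. The 5p arms are the usual guide strands, and in human cells they are known to repress MTOR, the kinase of the growth pathway of that name, and IGF1R, a growth factor receptor.

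Mature sequences are shown because the members are told apart by few bases, which bears on how reads can be assigned to them. RefSeq on GRCr8 held 5 of the 6 members, all but miR-99a-5p. Bases 2 to 8, the seed that pairs with targets, are in capitals, 5′ to 3′.
miR-100-5p: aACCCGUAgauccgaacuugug
miR-99b-5p: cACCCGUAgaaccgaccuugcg
miR-99a-3p: cAAGCUCGuuucuaugggucug
miR-99b-3p: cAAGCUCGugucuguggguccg
miR-100-3p: cAAGCUUGugucuauaggu
The 5p arms miR-100-5p and miR-99b-5p shared the seed ACCCGUA with no other of the 693 mature names in that table, and miR-99a-3p and miR-99b-3p shared AAGCUCG in the same way. As miR-99a-5p has no entry there, its seed and bases could not be compared with those of the other 5p arms. Counted from 1 at the 5′ end, with the base of miR-100-5p first, miR-99b-5p differed from miR-100-5p by A1C, U11A, A16C and U21C, so 18 of 22 positions were identical. With the base of miR-99a-3p first, miR-99b-3p differed by U10G, A14G and U21C. The seed of miR-100-3p differed from that of miR-99a-3p by C7U.

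Markers of other cells stood apart from the tissue label. The hepatocyte miRNA miR-122-5p held 40.2% to 46.4% of the reads in HO-1 knockout libraries, against 32.7% to 36.6% in WT libraries. The 8 germ cell and gonad markers of the list used here summed to 25.2 to 29.7 RPM in the knockout and 35.3 to 50.1 RPM in the WT, and miR-883-3p was at 0 in all 6 libraries. The values below therefore describe libraries in which these 8 listed markers together reached at most 50.1 RPM. Between genotypes, 36 of 570 miRNAs passed the test over all miRNAs (limma on log2(RPM + 1), Benjamini-Hochberg adjusted p below 0.05), which is 6.32%, and 32 of them, 5.61%, were lower in the knockout and 4, 0.702%, higher.

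Of the 6 members, 2 fell in the knockout and 0 rose, while the other 4 missed the threshold. The 2 were miR-100-5p, a guide strand, and miR-99a-3p, the rare partner strand of the most abundant member. Values of the knockout lay below every WT value for 4 of the 6 members, where 21.6% of all tested miRNAs and 41.7% of those of at least 10 RPM did the same, and above every WT value for 0 of the 6, where 4.39% of all tested miRNAs did. These counts and shares are for RPM alone, and such separation depends on scaling. With TMM scaling, which sets the bulk of miRNAs level between libraries, the same 2 members fell, beside 5.09% of all tested miRNAs. In bulk tissue, fewer cells of a type and less RNA per cell cannot be told apart.

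**Figure D1:**
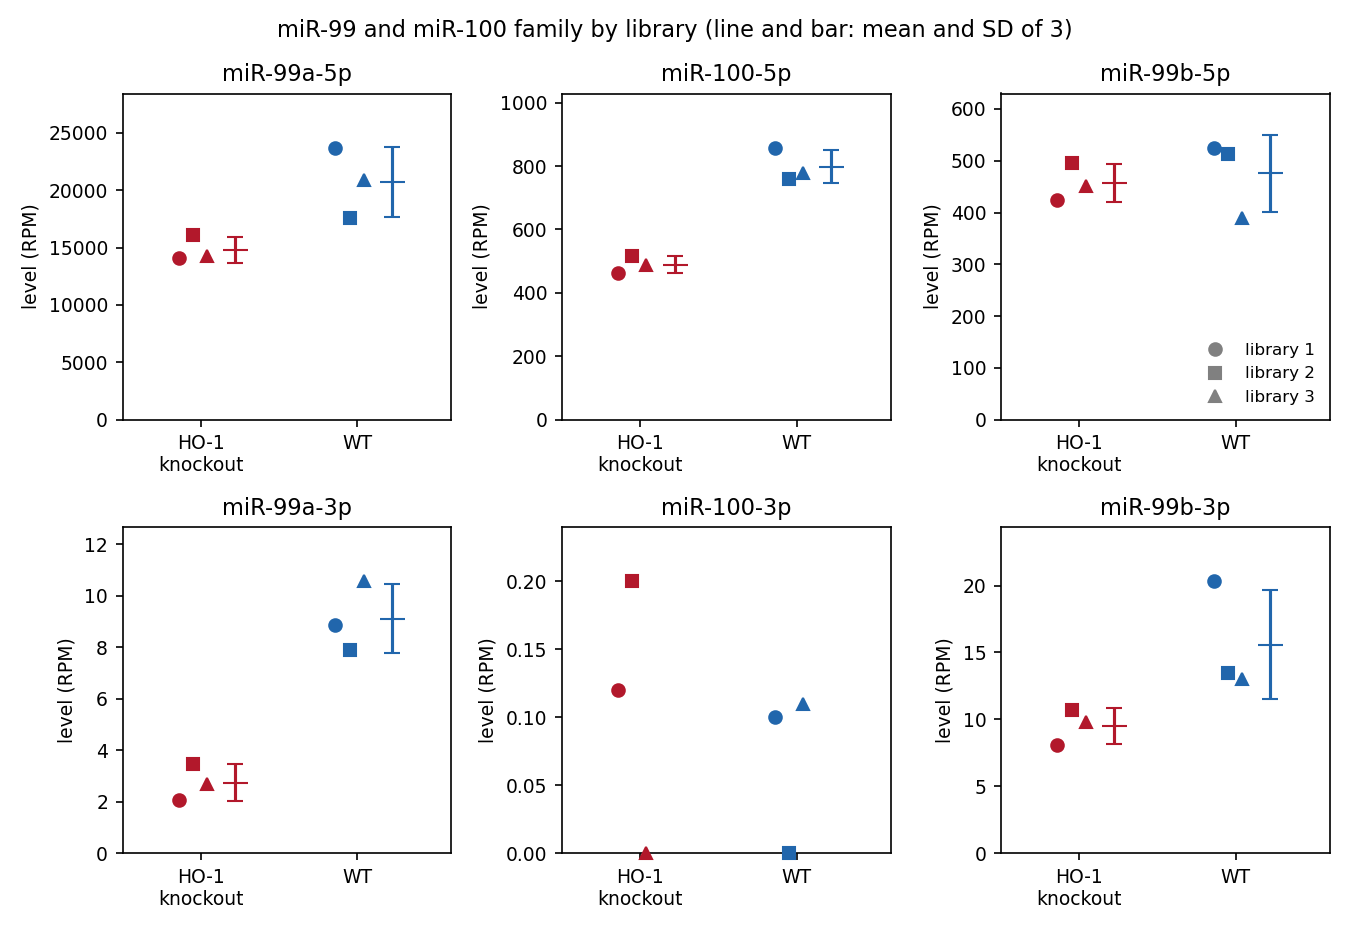
Level in RPM of each member in each library, with HO-1 knockout libraries in red and WT libraries in blue, symbols for library numbers, and lines with bars for the mean and SD of 3 libraries (not drawn for miR-100-3p, which had at most 2 reads in a library). The 3 knockout values lie below the 3 WT values for miR-99a-5p, miR-100-5p, miR-99a-3p and miR-99b-3p, and the groups overlap for miR-99b-5p and miR-100-3p.

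Among the guide strands, miR-99a-5p was by far the most abundant, in place 10 or 11 of all miRNAs in every library. It stood at 14081, 16118 and 14279 RPM in HO-1 knockout libraries 1 to 3, against 23704, 17593 and 20880 RPM in WT libraries 1 to 3. The knockout libraries were all lower in RPM, and WT library 2 lay closest to them. The TMM factor, by which RPM is divided, was 0.85 in HO-1 knockout library 1 and 1.06 in WT library 2. With TMM scaling these 2 libraries no longer separated, so the groups overlapped. The means were 14826 ± 1124 RPM in the knockout and 20725 ± 3058 RPM in the WT (SD, n = 3 each), a log2 change of -0.48 (SE 0.12, 95% interval -0.76 to -0.19). Adjusted over the whole table, that change was not past 0.05 (limma adjusted p = 0.062). It passed when the test was limited to miRNAs of at least 10 RPM (limma adjusted p = 0.016), and with TMM scaling it was -0.25 with a limma adjusted p of 0.33.

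The close relative miR-100-5p had 462, 517 and 488 RPM in knockout libraries 1 to 3, against 857, 760 and 777 RPM in WT libraries 1 to 3. The highest knockout value lay well below the lowest WT value, so the groups did not overlap. It fell to 489.0 ± 27.6 RPM in the knockout, against 798 ± 52 RPM in the WT (SD, n = 3 each), 38.7% lower. On the log2 scale it fell by 0.70 (SE 0.10; adjusted p = 0.015 in limma's test). With TMM scaling the change was -0.48 and remained past the threshold (limma adjusted p = 0.021). The call was lost without HO-1 knockout library 3 (limma adjusted p = 0.071). The authors' deposited table gives it a log2 fold change of -0.71 with a p-value of 0.00102.

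The 5p arm of the chromosome 1 trio, miR-99b-5p, showed 424, 496 and 451 RPM in the knockout, against 525, 513 and 389 RPM in the WT. The groups overlapped, and WT library 3 was the lowest of all 6. Means were 457 ± 36 RPM in the knockout and 476 ± 75 RPM in the WT (SD, n = 3 each), and the log2 change was -0.05 (SE 0.14; adjusted p = 0.84 in limma's test). The 95% interval of that change ran from -0.38 to 0.28, and with TMM scaling it was 0.18, so no direction can be given for miR-99b-5p.

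**Figure D2:**
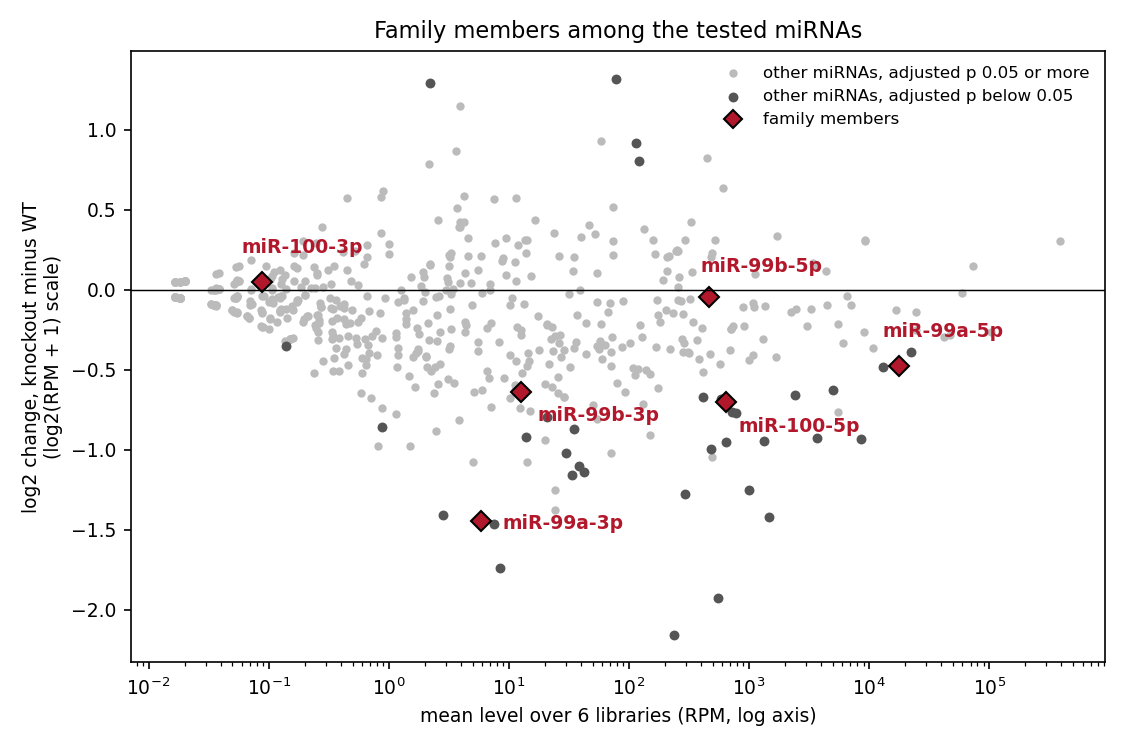
Log2 change (knockout minus WT, on the log2(RPM + 1) scale) of each of the 570 tested miRNAs against its mean level over the 6 libraries on a log axis. Red diamonds are the 6 members, dark grey points are other miRNAs with a limma adjusted p below 0.05 and light grey points the rest; the members span levels from 0.088 to 17776 RPM and changes from -1.45 to 0.05.

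The 3p arms, usually the discarded strands, were rare. miR-99a-3p stood at 2.05, 3.47 and 2.67 RPM in knockout libraries 1 to 3, against 8.86, 7.89 and 10.6 RPM in WT libraries 1 to 3. These levels correspond to 17, 34 and 24 reads in the knockout and 89, 72 and 100 reads in the WT, and the groups did not overlap. It fell to 2.73 ± 0.71 RPM in the knockout, against 9.1 ± 1.3 RPM in the WT (SD, n = 3 each), and its log2 change was -1.45 (SE 0.26; adjusted p = 0.019 in limma's test) on the log2(RPM + 1) scale, on which changes of rare miRNAs come out too small. The ratio of the means was 0.300. The call was lost without HO-1 knockout library 1 (limma adjusted p = 0.081) or 3 (limma adjusted p = 0.090).

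The other 2 rare strands did not pass. miR-99b-3p had 8.07, 10.7 and 9.79 RPM in the knockout, against 20.3, 13.5 and 13.0 RPM in the WT. Knockout values were all lower, with WT library 1 far above the other WT libraries, and the log2 change of -0.64 (SE 0.24) missed the threshold (limma adjusted p = 0.19). miR-100-3p had 1, 2 and 0 reads in knockout libraries 1 to 3, against 1, 0 and 1 reads in WT libraries 1 to 3. A count of 0 allows up to 3 reads, or 0.299 to 0.361 RPM per library, from counting error alone, so no fold is given for it.

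The order of levels was the same in all 6 libraries, from miR-99a-5p through miR-100-5p, miR-99b-5p, miR-99b-3p and miR-99a-3p to miR-100-3p. The neighbours miR-100-5p and miR-99b-5p were apart in the WT, where the lowest miR-100-5p value was 760 RPM and the highest miR-99b-5p value 525 RPM. In the knockout their ranges overlapped, at 462 to 517 RPM for miR-100-5p and 424 to 496 RPM for miR-99b-5p.

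Summed over both arms of all paralogs, the family held 1.5%, 1.71% and 1.52% of the reads in knockout libraries 1 to 3, against 2.51%, 1.89% and 2.21% in WT libraries 1 to 3. Its mean share was 1.58% ± 0.12 in the knockout and 2.20% ± 0.31 in the WT (SD, n = 3 each; exact two-sided permutation p = 0.1, the smallest that 3 against 3 libraries allow). Among reads other than miR-122-5p the share was 2.79% ± 0.08 in the knockout and 3.39% ± 0.39 in the WT, again with no overlap. Among reads outside the 9 other miRNAs of the 10 most abundant, the groups overlapped, at 8.05% to 8.54% in the knockout and 8.44% to 10.3% in the WT (exact two-sided permutation p = 0.3).

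Ratios between members within a library do not depend on how libraries are scaled, and they tested whether the paralogs changed alike. miR-100-5p had 109, 104 and 108 reads per 100 reads of miR-99b-5p in knockout libraries 1 to 3, against 163, 148 and 199 in WT libraries 1 to 3. Every knockout library lay below every WT library, and the log2 ratio differed by -0.66, at 0.10 ± 0.03 in the knockout and 0.76 ± 0.22 in the WT (SD, n = 3 each; exact two-sided permutation p = 0.1). miR-100-5p per 100 reads of miR-99a-5p was 3.30 ± 0.11 in the knockout and 3.89 ± 0.38 in the WT, and miR-99b-5p per 100 reads of miR-99a-5p was 3.08 ± 0.07 in the knockout and 2.33 ± 0.53 in the WT. Both of these ratios also separated the groups, with log2 differences of -0.23 and 0.43. For each of the 3 ratios the exact two-sided permutation test gave p = 0.1, adjusted p = 0.1 over the 3, which is the smallest possible and cannot pass 0.05. Ratios without overlap were common, at 52.2% of the 7140 pairs among the 120 miRNAs of at least 100 RPM in either direction, so the separation of all 3 is read against that share.

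Within the family, miR-99a made up 93.9% ± 0.2 of the reads in the knockout and 94.1% ± 0.8 in the WT, with overlapping groups. The share of miR-100 was 3.10% ± 0.10 in the knockout and 3.65% ± 0.33 in the WT, and that of miR-99b was 2.96% ± 0.07 in the knockout and 2.26% ± 0.49 in the WT (SD, n = 3 each; exact two-sided permutation p = 0.1 for both, adjusted p = 0.15 over the 3 paralogs). No source used here says how reads matching several of these related 5p arms were assigned. With miR-99a-5p so much more abundant, a small part of its reads assigned to miR-100-5p could weigh in the level of miR-100-5p, and this was not tested.

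The share of the 3p strand was lower in the knockout for both miR-99 paralogs. For miR-99a it was 0.0146%, 0.0215% and 0.0187% of both arms in knockout libraries 1 to 3, against 0.0374%, 0.0448% and 0.0505% in WT libraries 1 to 3. For miR-99b it was 1.87%, 2.11% and 2.13% in the knockout, against 3.73%, 2.56% and 3.23% in the WT. Neither pair of groups overlapped (exact two-sided permutation p = 0.1 for each, adjusted p = 0.15 over the 3 paralogs). Of 94 miRNAs with both arms listed and a rarer arm of at least 1 RPM on average, 17% had a lower share of the rarer arm in every knockout library than in any WT library, and 19.1% a higher one.

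**Figure D3:**
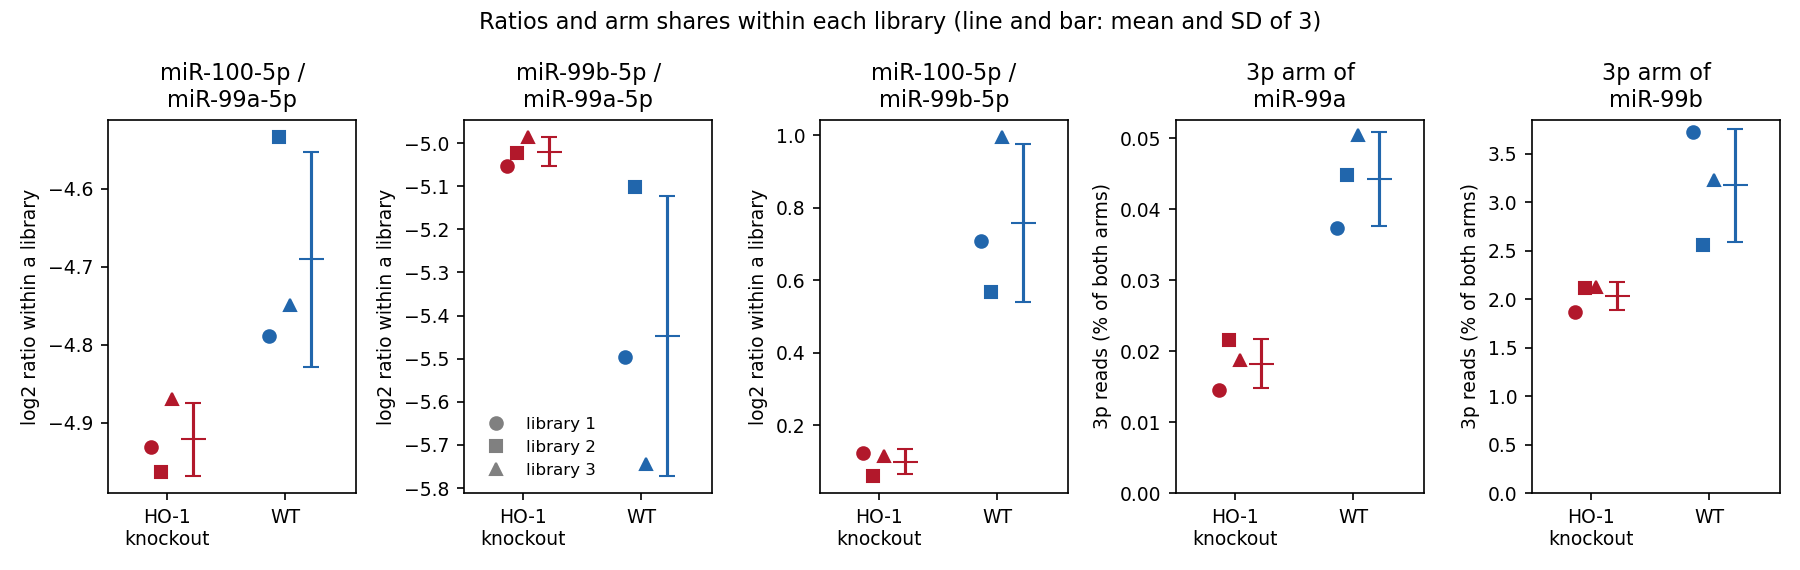
Left 3 panels: log2 ratio of pairs of 5p arms within each library; right 2 panels: 3p reads as a percent of both arms of a paralog. HO-1 knockout libraries are red and WT libraries blue, symbols stand for library numbers, and lines with bars are the mean and SD of 3 libraries. The groups do not overlap in any of the 5 panels, and the smallest exact p for each is 0.1.

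The cluster partners addressed whether the rest of each trio moved with its family member. Of 11 partner arms, 2 fell and 0 rose in the knockout, where 5.61% of all tested miRNAs fell and 0.702% rose. The arms had a median log2 change of -0.27 beside -0.12 for all 570 tested miRNAs and -0.29 for the 218 of at least 10 RPM. Both that fell were arms of miR-125b, a miRNA of stromal and neural cells. miR-125b-5p fell to 2545 ± 296 RPM in the knockout, against 4857 ± 723 RPM in the WT (SD, n = 3 each), which is a log2 difference of -0.93 (SE 0.14; adjusted p = 0.015 in limma's test). It is made from the miR-99a locus and the miR-100 locus alike, and its reads cannot be divided between them. Without HO-1 knockout library 3 the call was lost (limma adjusted p = 0.071).

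The 3p arms that belong to the miR-99a locus or the miR-100 locus alone were much rarer. Beside miR-99a, miR-125b-2-3p had 15.9, 23.6 and 21.8 RPM in the knockout, against 58.6, 40.0 and 41.9 RPM in the WT, and it fell by 1.16 on the log2 scale (SE 0.23, limma adjusted p = 0.025). That call was lost in all 6 fits with a library left out (limma adjusted p between 0.053 and 0.094) and in the replicate block (limma adjusted p = 0.066). Its neighbour let-7c-1-3p stood at 4.48 ± 0.26 RPM in the knockout and 7.57 ± 1.75 RPM in the WT and did not pass (limma adjusted p = 0.21). Beside miR-100, miR-125b-1-3p had 1.2 to 1.43 RPM in the knockout and 1.86 to 6.47 RPM in the WT, also short of the threshold (limma adjusted p = 0.22). The let-7 guide strands let-7c-5p, at 16115 ± 489 RPM in the knockout and 17602 ± 1392 RPM in the WT, and let-7a-5p, at 23224 ± 507 RPM in the knockout and 25552 ± 712 RPM in the WT, come from several loci and did not pass (limma adjusted p = 0.47 and 0.34).

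None of the 4 partner arms of miR-99b passed. The let-7e-5p level was 324 ± 27 RPM in the knockout and 439 ± 48 RPM in the WT (limma adjusted p = 0.091), and that of miR-125a-5p was 1053 ± 73 RPM in the knockout and 1117 ± 56 RPM in the WT (limma adjusted p = 0.64). Both arms come from this trio alone.

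**Figure D4:**
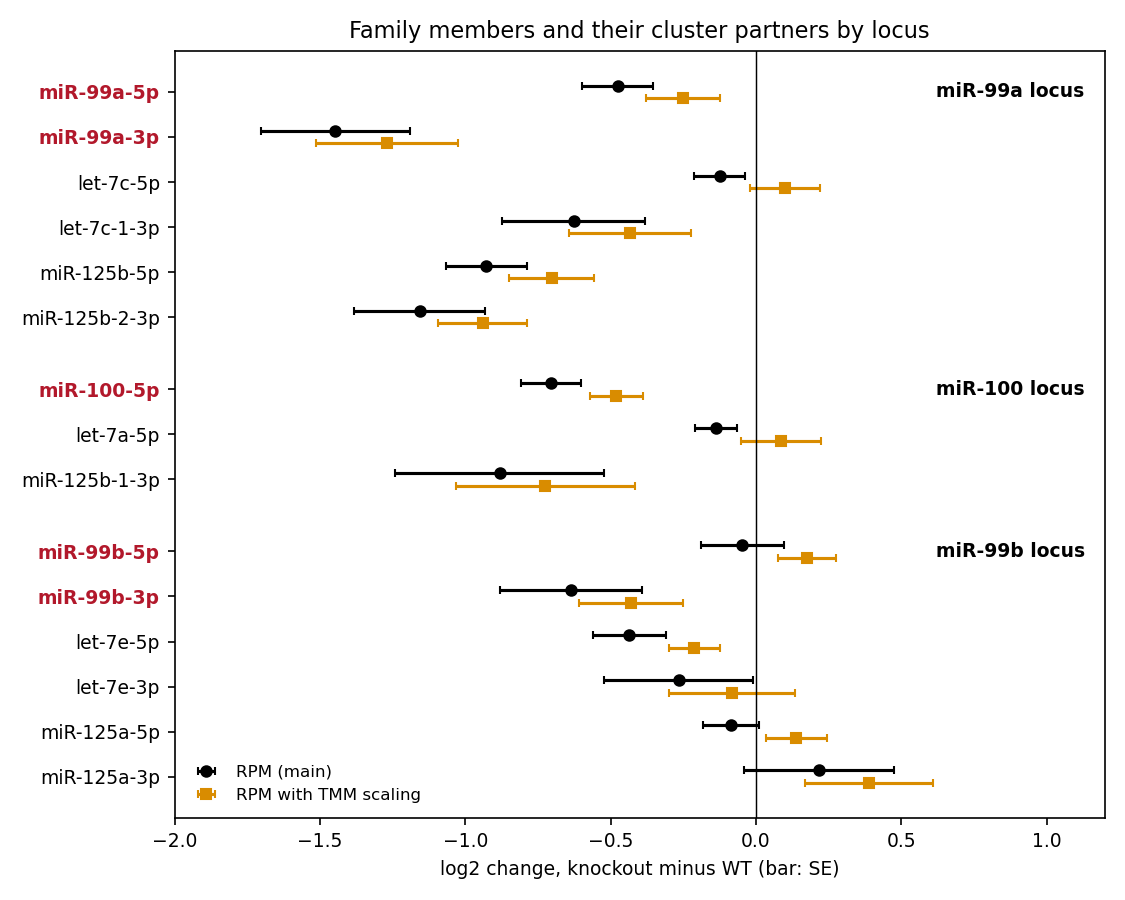
Log2 change (knockout minus WT) with its SE for members, in red, and their cluster partners, grouped by locus, as RPM (black circles) and with TMM scaling (orange squares). miR-99a-3p has the lowest value shown, -1.45 as RPM, and TMM scaling moves miR-99b-5p from -0.05 to 0.18.

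Of 6 ratios of a 5p member to a partner guide strand within a library, 4 separated the groups, beside 52.2% of ratios among miRNAs of at least 100 RPM. miR-99a-5p per 100 reads of let-7c-5p was 91.9 ± 4.5 in the knockout and 117.3 ± 8.2 in the WT, and miR-100-5p per 100 reads of let-7a-5p was 2.11 ± 0.14 in the knockout and 3.12 ± 0.17 in the WT. miR-99a-5p per 100 reads of miR-125b-5p was 585 ± 37 in the knockout and 428 ± 43 in the WT, so in each knockout library miR-125b-5p was the scarcer beside miR-99a-5p. miR-99b-5p per 100 reads of let-7e-5p was 141.2 ± 3.9 in the knockout and 108.1 ± 9.7 in the WT. For these 4 the exact two-sided permutation test gave p = 0.1 (adjusted p = 0.15 over the 6). The groups overlapped for miR-100-5p over miR-125b-5p, with 19.3 ± 1.2 reads per 100 in the knockout and 16.6 ± 2.3 in the WT, and for miR-99b-5p over miR-125a-5p, with 43.5 ± 4.7 in the knockout and 42.6 ± 6.1 in the WT (SD, n = 3 each; exact two-sided permutation p = 0.2 and 0.9).

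The miR-10 family, encoded in the Hox gene clusters, is the nearest relative by sequence. It is shown against the member it resembles most, with the longest shared run of bases in capitals.
miR-100-5p: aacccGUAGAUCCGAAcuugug
miR-10a-5p: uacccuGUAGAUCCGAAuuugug
miR-99b-5p: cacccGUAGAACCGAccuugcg
miR-10b-5p: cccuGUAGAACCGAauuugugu
The run shared by miR-100-5p and miR-10a-5p was 11 bases and that shared by miR-99b-5p and miR-10b-5p 10 bases, and each was found in 2 of the 693 mature names, on the strand of the mature miRNA. The seeds of these entries differed, ACCCGUA in miR-100-5p and miR-99b-5p, ACCCUGU in miR-10a-5p and CCUGUAG in miR-10b-5p. The run in capitals starts at base 7 of miR-10a-5p and base 5 of miR-10b-5p. The difference between their seeds therefore rests on where the entries place the 5′ end. None of the 4 miR-10 arms passed between genotypes. miR-10a-5p stood at 5140 ± 669 RPM in the knockout and 5961 ± 643 RPM in the WT (SD, n = 3 each; limma adjusted p = 0.38).

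The miRNAs whose levels over the 6 libraries most resembled each guide strand were found by the root-mean-square difference of log2(RPM + 1) values centred on their mean, among the 120 miRNAs of at least 100 RPM. For miR-99a-5p they were miR-203b-3p at 0.08, miR-455-3p at 0.10 and miR-181a-5p, a miRNA known from lymphocyte development, at 0.11. For miR-100-5p they were miR-30a-5p at 0.06, miR-17-5p of the miR-17-92 cluster at 0.09 and miR-203b-3p at 0.10. For miR-99b-5p they were miR-26b-5p at 0.07, miR-30e-3p at 0.09 and miR-872-5p at 0.10.

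Markers of other cells moved with genotype beside the family. The 5 smooth muscle and fibroblast markers, among them miR-143-3p and miR-145-5p, summed to 6606 to 8802 RPM in the knockout and 11804 to 18895 RPM in the WT, and 3 of the 5 fell. Both endothelial miR-126a arms fell, with sums of 19147 to 21287 RPM in the knockout and 25222 to 26982 RPM in the WT. On the log2 scale miR-126a-3p changed by -0.39 and miR-126a-5p by -0.77. The median over the 218 more abundant miRNAs named above was -0.29, so the change of miR-126a-3p lay near it. Of 5 epithelial markers 3 fell, with sums of 452 to 524 RPM in the knockout and 1005 to 1700 RPM in the WT. The 3 were miR-200a-3p, miR-200b-3p and miR-429, while miR-200c-3p stood at 58.8 ± 7.5 RPM in the knockout and 46.4 ± 10.4 RPM in the WT and miR-141-3p at 4.64 ± 0.88 RPM in the knockout and 5.20 ± 2.10 RPM in the WT, and neither passed (limma adjusted p = 0.36 and 0.85). Among all tested miRNAs 5.61% fell, and of these 8 called markers miR-200b-3p alone kept its call with any library left out. None of 3 hepatocyte, 4 leukocyte, 2 red blood cell and 7 tested germ cell and gonad markers passed (limma adjusted p below 0.05). All these marker sums and calls, and the lack of calls, are for RPM alone. Whether they hold with TMM or other scaling was not tested. The part of these cell types in the lower levels of miR-100-5p and miR-99a-3p was not tested.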

How the data were processed

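Small RNA libraries from 1 µg of total RNA were sequenced as single-end 50 bp reads, per the labels' protocols. The submitters' processing notes name FastQC, BWA, edgeR and build rn6, without roles or versions; for trimming, mismatches and reads with several matches the rules are not given in the sources here. The authors deposited RPM per library and per genotype mean, a log2 fold change and a p-value, per the file headers; whether that p-value is adjusted is not stated. Of the sample columns, 0 were unmatched.

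limma 3.58.1 (R 4.3.3) modelled log2(RPM + 1) on genotype, with an intensity trend, for the 570 miRNAs that had a value above 0 anywhere. The p-values were adjusted over all of them (Benjamini-Hochberg, 0.05). A trial of the code on simulated data had as many rises as falls, unlike these data, so it does not bear on the calls here. The 194 rows at 0 everywhere were not tested. Shares and within-library ratios were compared by exact permutation.

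Whole reads were recovered from RPM steps, with 97.8% to 98.9% of values above 0 within 0.0051 RPM of a whole number, for counts of reads and as alternatives in edgeR 4.0.16, which called 61 miRNAs, and DESeq2 1.42.0. The step of WT library 1 is too close to 0.1 RPM for low values alone to give it, and its total rests on higher values. PCR copies were not removed.

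Members, lists, tests and the rule for named miRNAs (members, cluster partners, miR-10 arms, markers and the 3 miRNAs most like each 5p arm) were chosen with earlier results of these data known. let-7c-2-3p was listed as a partner of miR-99a by mistake and was left out, since the RefSeq table places its precursor on chromosome 7. That table is on GRCr8, not rn6, so no positions are printed. Alternatives covered scaling, pseudocounts of 0.1 and 5, a minimum of 10 RPM, the test, the replicate number as a block and leaving out each library.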

Additional observations from a re-analysis of the deposited data

How the results depend on the processing

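The number of miRNAs called, 36, was 61 with edgeR and 72 with DESeq2 on recovered reads, 22 with the replicate number as a block, and 5 to 26 with a library left out (13, 21 and 5 without HO-1 knockout libraries 1, 2 and 3, and 17 without WT library 2). Calls split into 32 lower and 4 higher, against 29 and 20 with TMM, 27 and 20 with RLE and 25 and 19 with upper-quartile scaling, which moved the median log2 change of miRNAs of at least 10 RPM by 0.21, 0.23 and 0.21. Deviations of knockout and WT libraries of equal number correlated by 0.03, 0.18 and 0.20 for libraries 1, 2 and 3. Those of unequal number correlated by -0.29 to 0.06. So few correlations cannot decide whether equal replicate numbers pair the libraries.

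miR-100-5p kept its direction and its call in all 11 settings that used every library, at log2 changes of -0.71 to -0.47, the replicate block included (adjusted p = 0.046), and ranged from -0.75 to -0.65 with a library left out. miR-99a-3p, below the 10 RPM filter, kept its call in 9 of 10, at -1.72 to -0.87 (-0.87 with a pseudocount of 5), missed in the replicate block at -1.45 (limma adjusted p = 0.054), and ranged from -1.59 to -1.31 with a library left out. miR-99a-5p passed in 2 of the 11, at -0.48 with a pseudocount of 0.1 (limma adjusted p = 0.045) and with the 10 RPM filter. Over the 11 its change was -0.48 to -0.24, and with upper-quartile scaling the limma adjusted p was 0.40. With a library left out it ranged from -0.59 to -0.37 and passed in 1 of 6 fits, without WT library 2 (limma adjusted p = 0.049). miR-99b-5p turned to 0.18 with TMM, 0.19 with RLE, 0.17 with upper-quartile scaling, 0.15 over reads other than miR-122-5p, 0.16 in edgeR and 0.19 in DESeq2, and ranged from -0.19 to 0.030 with a library left out. miR-99b-3p passed in none, at -0.75 to -0.44 with a library left out.

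With a library left out, differences between genotypes changed sign for the miR-99a share of the family (-0.59 to 0.14 percentage points) and for the log2 ratio of miR-99b-5p to miR-125a-5p (-0.084 to 0.12), and for no other share or ratio. For pairs of 5p arms the replicate block gives the same differences by arithmetic, so it is no check on them. The smallest exact permutation p there is 0.25. The causes were not tested. Depth limits miR-100-3p, with 3 reads over the knockout and 2 over the WT libraries.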

Other observations

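WT library 1 held the highest value of miR-10b-5p, at 332 RPM, against 77.7 and 110.0 RPM in WT libraries 2 and 3 and 84.1, 72.0 and 104.3 RPM in HO-1 knockout libraries 1 to 3. The same library was highest for miR-125b-1-3p, at 6.47 RPM, against 1.86 and 2.64 RPM in the other WT libraries, and for the fibroblast miRNA miR-214-3p, at 60.4 RPM, against 18.5 and 28.3 RPM. It also held the highest RPM of miR-99a-5p, miR-99b-5p, miR-99b-3p and miR-100-5p, while WT library 3 was highest for miR-99a-3p. Some of these rankings depend on scaling. The TMM factor, by which RPM is divided, was 1.23 in WT library 1, against 1.06 and 0.97 in WT libraries 2 and 3. With TMM scaling WT library 1 stayed highest for miR-10b-5p, miR-125b-1-3p, miR-214-3p and miR-99b-3p. It was no longer highest for miR-99a-5p, miR-99b-5p and miR-100-5p.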
